A study of Mus musculus with 12 samples.

Results

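The comparison described here sets N2a cells rescued with the exon-3-containing isoform of Sap30bp against N2a cells rescued with the exon-3-lacking isoform. N2a is a mouse neuroblastoma line. Its Flp-In rtTA derivative carries a FLAG-tagged Sap30bp cDNA under doxycycline control, and the 2 lines differ in whether that cDNA holds exon 3. The rescue groups were chosen by their labels: 2 biological replicates of the exon-3-containing line and 2 of the exon-3-lacking line, so 4 of the 12 polyA libraries of the series, all 4 with Sap30bp siRNA and doxycycline. The other 8 libraries were the knockdown groups of both lines (the same siRNA without doxycycline) and the control groups of both lines (a non-targeting siRNA pool without doxycycline), with 2 replicates each. Doxycycline was given with the change of medium 24 hours after transfection, and cells were harvested at 72 hours. No group received the non-targeting siRNA together with doxycycline. Each isoform was carried by its own line, so isoform and line cannot be told apart at rescue. Comparison with the control and knockdown groups of the same lines takes out only the difference they had without doxycycline. A response to doxycycline or a Sap30bp level that differs between the lines cannot be told apart from isoform. The labels do not say whether a line is a clone or a pool.

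SAP30BP is a nuclear protein that was described as a partner of the SIN3 corepressor subunit SAP30 and, in human cells, as a cofactor of the splicing factor RBM17 in the removal of short introns. RBM17 and the U2AF proteins act at the 3′ splice site, where the polypyrimidine tract and the AG dinucleotide are read before the branch site is engaged. An intron that is not removed stays in the polyadenylated RNA and is read as retained, and a cassette exon that is passed over is read as skipped. The series compares a neural and a non-neural isoform of the protein, per the study's design text, and the question addressed here is whether splicing or gene expression differed between cells rescued with either isoform.

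Exon 3 of Sap30bp is 48 nt long, a multiple of 3, at chr11:115799324-115799371 on the plus strand of mm9. The sequences are shown because the rescue cDNAs differ by this exon: the first line gives the exon in capitals with 20 nt of the neighbouring exon on each side, and the second the same flanks joined without it. They were read from GENCODE vM21 transcripts (GRCm38) that matched the exon by gene, length and the distance to both neighbouring exons.
Sap30bp with exon 3: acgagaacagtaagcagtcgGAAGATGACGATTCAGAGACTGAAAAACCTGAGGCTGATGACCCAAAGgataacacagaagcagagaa
Sap30bp without exon 3: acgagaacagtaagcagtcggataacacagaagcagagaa

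Splicing was measured as percent spliced in, the percentage of transcripts that include an exon, retain an intron or use a splice site, and differences are given in percentage points, exon-3-containing minus exon-3-lacking. Of 364439 events, 28980 in 7019 genes were measured in each of the 12 libraries with an average from 2% to 98%. They comprised 17096 introns, 6738 cassette exons (microexons, 3 to 27 nt long, made up 195), 3115 events at alternative 3′ sites and 2031 at alternative 5′ sites. Replicates of a group differed by a median of 2.05 to 2.69 points. The reads behind single values are not in the table used here, so the depth is unknown. For gene expression the authors deposited 1 RPKM value per group (reads scaled to transcript length and library size), with a log2 fold change and an FDR of their own. The neuroblastoma identity of the rescue groups was visible in Hand2 and Phox2a, transcription factors of sympathetic neuroblasts: in the authors' deposited table Hand2 was at 140 RPKM in the exon-3-containing rescue and 174 RPKM in the exon-3-lacking rescue, while Th, the first enzyme of catecholamine synthesis, was below 0.5 RPKM in both.

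Sap30bp exon 3 itself was the widest difference between the rescue groups among the events tested, and the only event limma called. The rescue cDNAs were built with or without this exon, so its difference was set by the design and serves as a check of the constructs. Its inclusion was 98.8% and 99.2% in the exon-3-containing rescue, against 11.7% and 5.87% in the exon-3-lacking rescue. At knockdown the exon-3-containing line had 96.3% and 96.8%, and the exon-3-lacking line 74.3% and 67.9%. At control the exon-3-containing line had 94.0% and 95.8%, and the exon-3-lacking line 90.9% and 90.0%. The libraries of the lines did not overlap in any of the 3 conditions, and the gap was widest at rescue. The rescue difference was 90.22 points (SE 3.01, limma with Benjamini-Hochberg adjustment over 28980 events, adjusted p = 1.7e-07). It exceeded the control difference by 85.76 points (SE 4.26, limma adjusted p = 1.29e-05) and the knockdown difference by 64.78 points (SE 4.26, limma adjusted p = 0.000261).

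**Figure D1:**
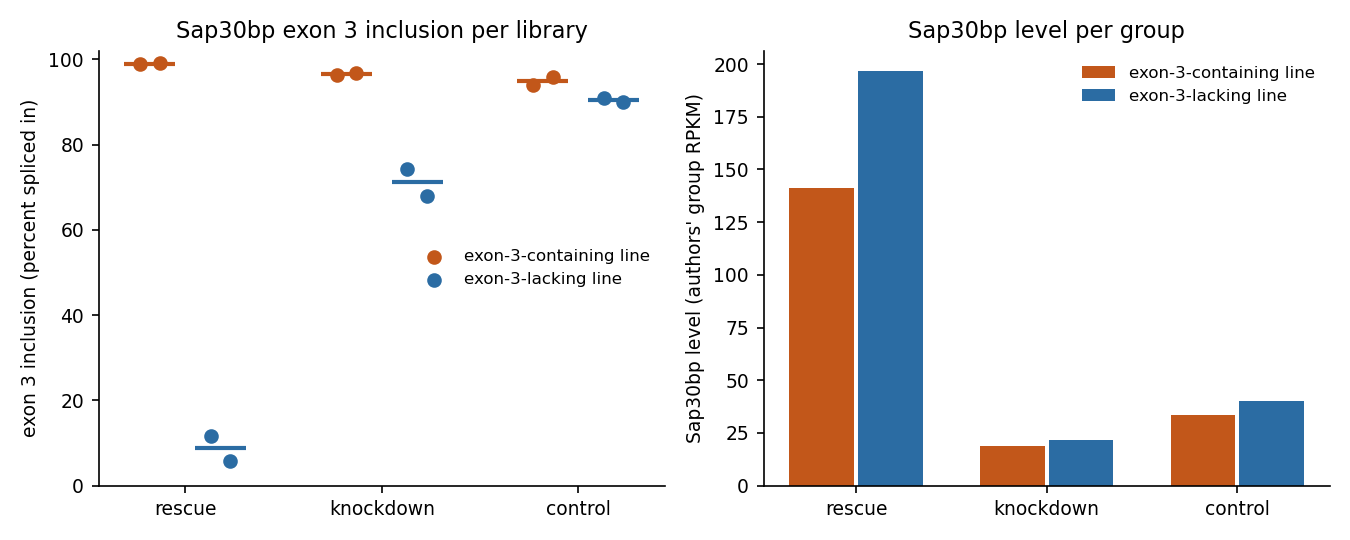
Left, inclusion of Sap30bp exon 3 in each library (points) with the mean of the 2 replicates (bars), in percent spliced in, for rescue, knockdown and control. Right, the Sap30bp level as the authors' RPKM value per group. The exon-3-lacking rescue libraries lie at 11.7% and 5.87% inclusion and all others above 67%, while Sap30bp RPKM was highest in the 2 rescue groups.

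Both rescues brought Sap30bp above the control level, and the exon-3-containing one less far. The authors' deposited table gave Sap30bp at 141 RPKM in the exon-3-containing rescue and 196 RPKM in the exon-3-lacking rescue, at 18.6 and 21.7 RPKM in the knockdown groups of the exon-3-containing and exon-3-lacking line, and at 33.6 and 40.03 RPKM in their control groups. Knockdown against control had a log2 fold change of -0.60 in the exon-3-containing line (FDR 0.0684) and -0.63 in the exon-3-lacking line (FDR 0.0674) in the authors' deposited table. The difference between the rescue groups, a log2 fold change of -0.57 in the authors' deposited table, had an FDR of 0.099. Against control, the same authors' deposited table gave a log2 fold change of 1.02 for the exon-3-containing rescue (FDR 0.000106) and 1.42 for the exon-3-lacking rescue (FDR 3.98e-09). These fold changes are smaller than the ratios of the RPKM values in that table, and the reason for the gap was not tested. RNA of the endogenous gene and of the cDNA is counted together in all these values.

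No event beside Sap30bp exon 3 passed limma's test for the rescue difference. A call required an adjusted p under 0.05 and at least 15 points between the means, and 1 of 28980 events met it (0.00345% of those tested). The next smallest adjusted p was 0.12, and 2056 events had an unadjusted p under 0.05. For the control difference limma called 0 of 28980 events, with 1229 at an unadjusted p under 0.05, and for the knockdown difference 0, with 1849. With 2 libraries against 2, an exact permutation test of a single event cannot go below p = 0.333. Events are therefore described by a second rule that is not a test: the 2 libraries of a group do not overlap with the 2 of the other, and the means differ by at least 15 points. Such events are called separated below.

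By that rule 294 events were separated at rescue (1.01% of the 28980 tested), 197 higher (0.68%) and 97 lower (0.335%) in the exon-3-containing rescue. At knockdown 212 were separated (0.732%) and at control 165 (0.569%). With exon-3-lacking rescue replicate 1 left out, 190 events were separated as higher and 180 as lower in the exon-3-containing rescue, so the balance of the 197 and 97 rests on that library. The excess at rescue lay mainly in introns. Of 17096 introns, 157 were separated at rescue (0.918%), against 83 at knockdown (0.485%) and 52 at control (0.304%). More retention in the exon-3-containing line was seen in 149 of these introns at rescue (0.872%), 55 at knockdown (0.322%) and 10 at control (0.0585%). Among the 4064 introns under 200 nt, 50 were separated at rescue (1.23%), 47 of them with more retention in the exon-3-containing rescue. Cassette exons were separated in equal number in each condition, 92 of 6738 (1.37%). Exons lower in the exon-3-containing line numbered 68 at rescue (1.01%), 74 at knockdown (1.1%) and 78 at control (1.16%). Of 2031 alternative 5′ sites, 26 were separated at rescue (1.28%), 18 of them used more in the exon-3-containing rescue, and of 3115 alternative 3′ sites 19 (0.61%), 6 of them used more.

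**Figure D2:**
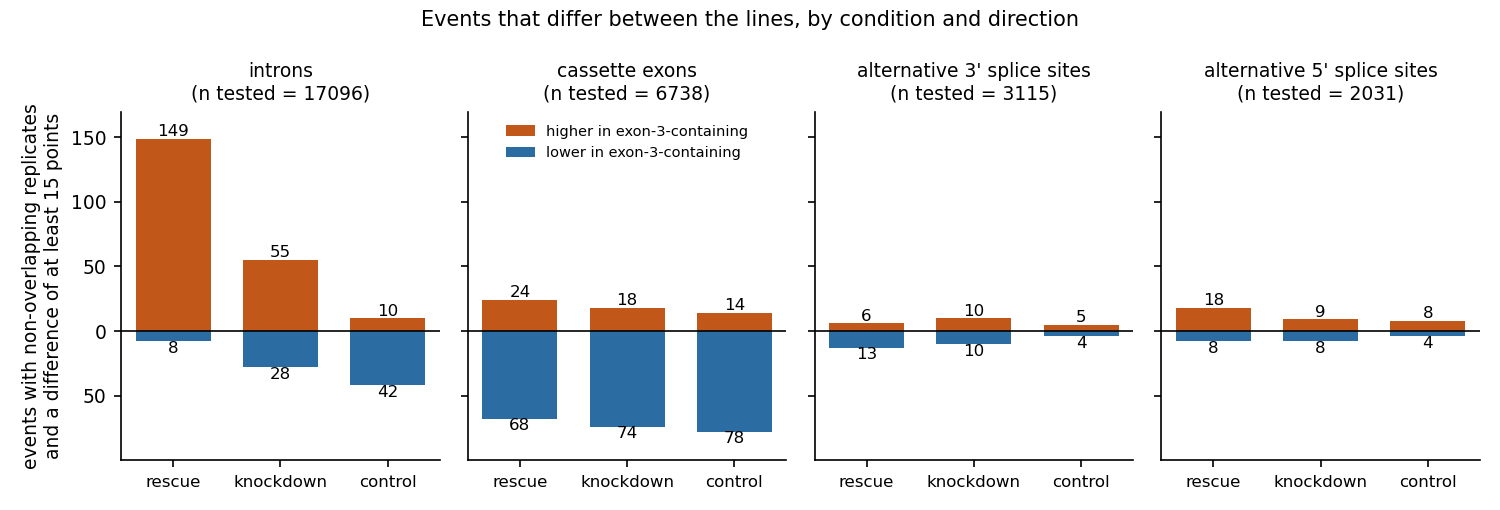
Number of events whose libraries do not overlap between the lines and whose means differ by at least 15 points, at rescue, knockdown and control. Bars above 0 count events higher in the exon-3-containing line and bars below 0 those lower in it; 149 introns stood higher at rescue, against 55 at knockdown and 10 at control.

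The intron count rests in part on 1 library. Over all 17096 introns, the median difference was 1.21 points at rescue, with 72.5% of introns more retained in the exon-3-containing rescue, against -0.01 points at knockdown and -0.24 at control. The 16824 introns that did not respond to knockdown had a median retention of 4.62% and 4.95% in the exon-3-containing rescue libraries, against 2.78% and 4.43% in those of the exon-3-lacking rescue. Replicate 1 lay below replicate 2 in this median in each of the 6 groups, and that of the exon-3-lacking rescue was the lowest of all 12 libraries. With that library left out, an alternative chosen after seeing the data, the median over these introns was 0.45 points in place of 1.18, and 109 introns were separated with more and 58 with less retention in the exon-3-containing rescue. Leaving out the other exon-3-lacking rescue library gave 349 and 14, and leaving out the exon-3-containing rescue libraries gave 275 and 15 for replicate 1 and 246 and 28 for replicate 2; a single library is overlapped less easily, so totals grow when any is left out. The shift was similar at every intron length, with medians of 1.34 points under 100 nt, 1.24 from 100 to 199 nt, 1.28 from 200 to 999 nt and 1.12 from 1000 nt. The 149 introns higher at rescue had a median length of 471 nt, against 705.5 nt for all tested introns, and lay in 130 genes.

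Events that responded to the Sap30bp siRNA were called by the difference between the knockdown and control libraries. In limma's test for the mean of both lines 430 events passed (1.48% of 28980), 254 of them introns retained more on knockdown. The 4 rescue libraries did not enter that difference. They did enter the estimate of the spread behind its p-values and the filter on events. At rescue, 342 of the 430 (79.5%) lay further toward the knockdown side in the exon-3-containing line than in the exon-3-lacking line, with a median of 5.45 points in the direction of the knockdown change. With exon-3-lacking rescue replicate 1 left out, the median was 3.4 points and 292 of 430 (67.9%) lay on that side. With all libraries, the same median was 2.07 points at knockdown (268 of 430) and -0.37 points at control (197 of 430). Of the 430, 50 were separated at rescue (11.6%, against 1.01% of all events), 48 toward the knockdown side (11.2%) and 2, introns of Apbb1 and Car11, away from it. The 430 were chosen for a knockdown change of at least 15 points, so their share and that of all events are not like for like. None was called singly by limma for the rescue difference beyond the control difference. In that limma test 46 of the 430 had an unadjusted p under 0.05, against 1307 of all 28980 events. The 430 were chosen with the same spread estimates and control libraries, so these counts cannot show an excess among them.

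The 254 introns retained more on knockdown show the pattern by library. Their median retention was 22.8% and 24.2% in the exon-3-containing rescue, against 14.3% and 19.5% in the exon-3-lacking rescue. At knockdown it was 35.2% and 37.6% in the exon-3-containing line, and 30.1% and 38.9% in the exon-3-lacking line. At control it was 9.93% and 13.04% in the exon-3-containing line, and 10.02% and 14.1% in the exon-3-lacking line. Only at rescue did the libraries of the lines not overlap in this median, and both rescues lay between their knockdown and control groups. The median difference per intron was 6.64 points, with 219 of 254 (86.2%) higher in the exon-3-containing rescue. Of the 16824 introns that did not respond to knockdown, 72.3% were also higher, with a median of 1.18 points. Among the 254 introns, 29 were separated upwards (11.4%, against 0.872% of all tested introns) and 1 downwards. With exon-3-lacking rescue replicate 1 left out the median difference was 3.48 points (183 of 254, 72%), against 0.45 points and 57.1% for the non-responsive introns. Without each of the other 3 rescue libraries the median of the 254 introns lay between 5.54 and 9.13 points. Within replicate number 1 alone the median was 8.85 points, and within replicate number 2 alone 3.62 points. By length, the median was 5.58 points for the 198 introns under 200 nt and 7.81 points for the 56 longer ones.

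**Figure D3:**
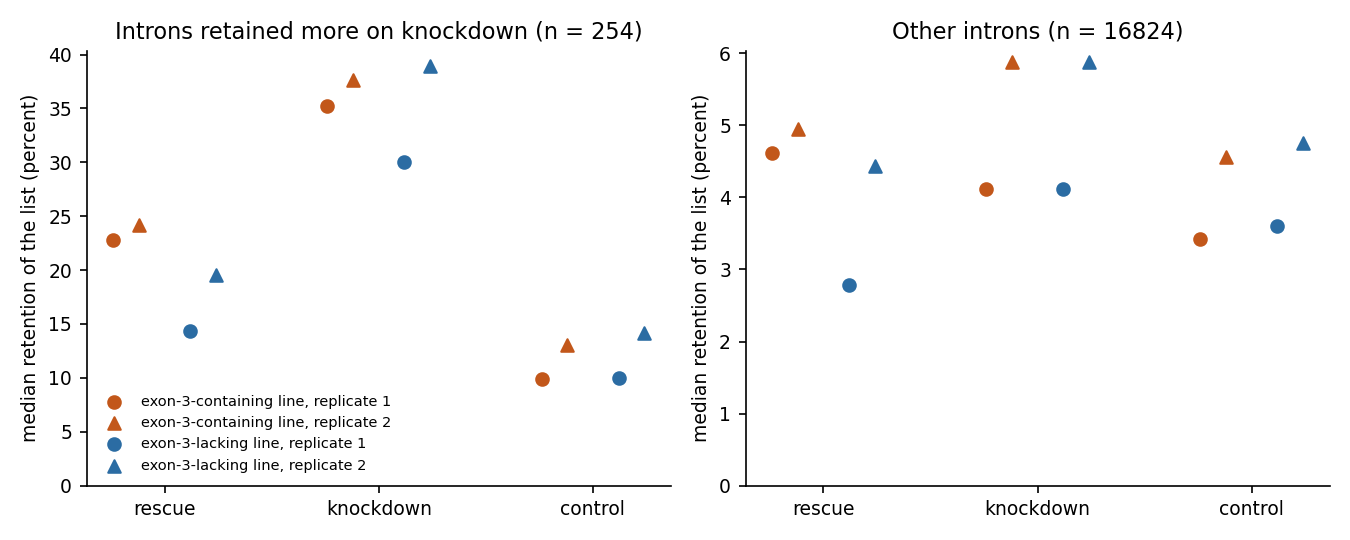
Median retention, in percent, of introns retained more on knockdown (left, 254 introns) and of introns that did not respond to knockdown (right, 16824 introns), for each library at rescue, knockdown and control; circles are replicate 1 and triangles replicate 2. On the left the exon-3-containing rescue libraries lie at 22.8% and 24.2%, above 14.3% and 19.5% in the exon-3-lacking rescue, and on the right replicate 1 of the exon-3-lacking rescue is lowest at 2.78%.

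The other responsive classes were smaller. The 108 cassette exons included less on knockdown had a median inclusion of 61.8% and 59.2% in the exon-3-containing rescue, against 68.6% and 65.6% in the exon-3-lacking rescue. Their median difference in the knockdown direction was 4.11 points at rescue and 3.59 points at knockdown, so it was present in the groups without doxycycline too. The 28 exons included more on knockdown differed by 5.16 points at rescue and 1.29 at knockdown, and the 22 alternative splice sites by 3.59 and 2.37 points. The 18 introns retained less on knockdown had a median of -3.67 points at rescue, on the side away from knockdown. That value was -1.47 points with exon-3-containing rescue replicate 1 left out, -1.96 with exon-3-lacking rescue replicate 1 left out, and 1.14 within replicate number 2 alone.

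The introns named next were separated at rescue in the knockdown direction, and none of them passed limma's test of the rescue difference (adjusted p from 0.306 to 0.718, exons of the same set included). They were chosen for their known roles after the values were seen, except the 78-nt Mst1 intron, the 60-nt P4ha2 exon and Arhgef10l, which a rule of size gave. The 141-nt intron of Pan2, a nuclease that trims poly(A) tails, was retained at 49.4% and 51.0% in the exon-3-containing rescue, against 25.6% and 29.0% in the exon-3-lacking rescue. The 66-nt intron of Cpsf1, the large subunit of the cleavage and polyadenylation specificity factor, was at 42.6% and 38.4% in the exon-3-containing rescue, against 18.8% and 28.8% in the exon-3-lacking rescue. The libraries did not overlap in either gene, and at control the lines differed by 0.57 points in Pan2 and 0.86 points in Cpsf1. Skiv2l, the helicase of the SKI complex that feeds RNA to the exosome, had a 348-nt intron at 57.8% and 63.2% in the exon-3-containing rescue, against 31.0% and 49.6% in the exon-3-lacking rescue. The 992-nt intron of Tet2, an enzyme that oxidizes 5-methylcytosine, was at 38.9% and 35.0% in the exon-3-containing rescue, against 13.3% and 10.7% in the exon-3-lacking rescue. The 77-nt intron of Recql4, a RecQ DNA helicase, stood at 25% and 36.1% in the exon-3-containing rescue, against 11.4% and 18.8% in the exon-3-lacking rescue. The largest difference of this kind was the 78-nt intron of Mst1, which encodes macrophage stimulating protein, at 84.0% and 71.4% in the exon-3-containing rescue, against 21.1% and 63.3% in the exon-3-lacking rescue. Here replicate 1 of the exon-3-lacking rescue again lay far below replicate 2.

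Cassette exons in the same set are shown with their sequences, because these exons are the parts of the RNA whose inclusion differed. The 73-nt exon of Ccnl1, which encodes cyclin L1, a partner of CDK11 in splicing, has a length that is not a multiple of 3. The 54-nt exon of Mbnl1, a splicing regulator of the muscleblind family, and the 60-nt and 66-nt exons of P4ha2, an alpha subunit of collagen prolyl 4-hydroxylase, keep the frame. The P4ha2 exons lie next to each other in the gene. Positions are on mm9, at chr3:65759126-65759198 (minus strand) for Ccnl1, chr3:60418605-60418658 (plus) for Mbnl1, chr11:53939740-53939799 and chr11:53939848-53939913 (plus) for P4ha2, and the sequences were read from GENCODE vM21 as above.
Ccnl1 73-nt exon: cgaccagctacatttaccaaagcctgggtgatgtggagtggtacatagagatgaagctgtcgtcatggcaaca
Mbnl1 54-nt exon: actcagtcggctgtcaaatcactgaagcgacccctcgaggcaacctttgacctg
P4ha2 60-nt exon: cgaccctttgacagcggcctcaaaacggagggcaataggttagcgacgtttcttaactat
P4ha2 66-nt exon: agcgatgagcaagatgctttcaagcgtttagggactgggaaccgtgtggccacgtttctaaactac

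The Ccnl1 exon was included at 38.5% and 35.5% in the exon-3-containing rescue, against 60.7% and 57.6% in the exon-3-lacking rescue. At knockdown the exon-3-containing line had 27.2% and 27.8% and the exon-3-lacking line 31.1% and 24.8%. At control the exon-3-containing line had 62.3% and 66.5% and the exon-3-lacking line 72.0% and 66.4%. The lines overlapped at knockdown, and at rescue the exon-3-containing line lay nearer to its knockdown level than the exon-3-lacking line. The rescue difference was -22.20 points (SE 4.25, limma adjusted p = 0.306). The Mbnl1 exon was at 62.6% and 78.3% in the exon-3-containing rescue, against 49.0% and 56.6% in the exon-3-lacking rescue, with a control difference of 0.19 points. The P4ha2 exons differed in opposite senses and, as neighbouring exons, may not be independent. The 60-nt exon was at 75.1% and 73.9% in the exon-3-containing rescue, against 48.4% and 60.2% in the exon-3-lacking rescue, and the 66-nt exon at 26.2% and 28.6%, against 50.9% and 40.9%. At control they differed between the lines by 8.77 and -10.24 points, in the same senses. The 117-nt exon of Arhgef10l, a guanine nucleotide exchange factor for small GTPases, was at 44.4% and 55.3% in the exon-3-containing rescue, against 24.95% and 27.8% in the exon-3-lacking rescue, with a control difference of -0.49 points.

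Outside the responsive set, the widest separations were in genes of varied function, and the numbers below are descriptions without a called test. In Magi3, a scaffold protein of cell junctions, a 1432-nt intron was retained at 75% and 42.9% in the exon-3-containing rescue, against 18.9% and 22.03% in the exon-3-lacking rescue, and a 91-nt exon inside that intron was included at 90.1% and 77.1%, against 56.4% and 54.4%. The 2 Magi3 events share that stretch of the gene and are not independent. The 4398-nt intron of Ubr2, an N-end rule ubiquitin ligase, was at 42.9% and 55.6% in the exon-3-containing rescue, against 10.5% and 16.3% in the exon-3-lacking rescue. In Zbtb45, a zinc finger gene, an alternative 5′ site was used at 69.8% and 71.2% in the exon-3-containing rescue, against 32.9% and 41.9% in the exon-3-lacking rescue (limma adjusted p = 0.12), while another site of the gene was at 17.7% and 17.8%, against 49.3% and 46.5%. Both Zbtb45 sites belong to the same set of alternative 5′ sites and are not independent. The Zbtb45 control difference of the first site was 1.26 points. The other introns that stood higher by the naming rule, Gm12942, Adamts10 and Coro7, differed by 30.18 to 31.94 points.

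Lower in the exon-3-containing rescue were mainly exons. A 282-nt exon of Zfp532 was at 56.7% and 62.2% in the exon-3-containing rescue, against 82.9% and 87.3% in the exon-3-lacking rescue (limma adjusted p = 0.12), with a control difference of -7.23 points. The 9-nt microexon of Mtss1l, a membrane-bending protein, was at 42.3% and 36.2% in the exon-3-containing rescue, against 58.2% and 70.0% in the exon-3-lacking rescue. This microexon belongs to the knockdown-responsive set, as an exon included less on knockdown. Exons of Ttc3, Pts and Ccdc134 differed by -28.46, -27.24 and -22.86 points. A 3′ site of Gpx4, the glutathione peroxidase that reduces lipid hydroperoxides, was used at 60.2% and 73.1% in the exon-3-containing rescue, against 85.9% and 97.2% in the exon-3-lacking rescue. The introns lower in the exon-3-containing rescue, led by Rad54b and Zfp187, differed by -19.73 to -16.26 points, with the knockdown-responsive intron of Car11 among them.

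**Figure D4:**
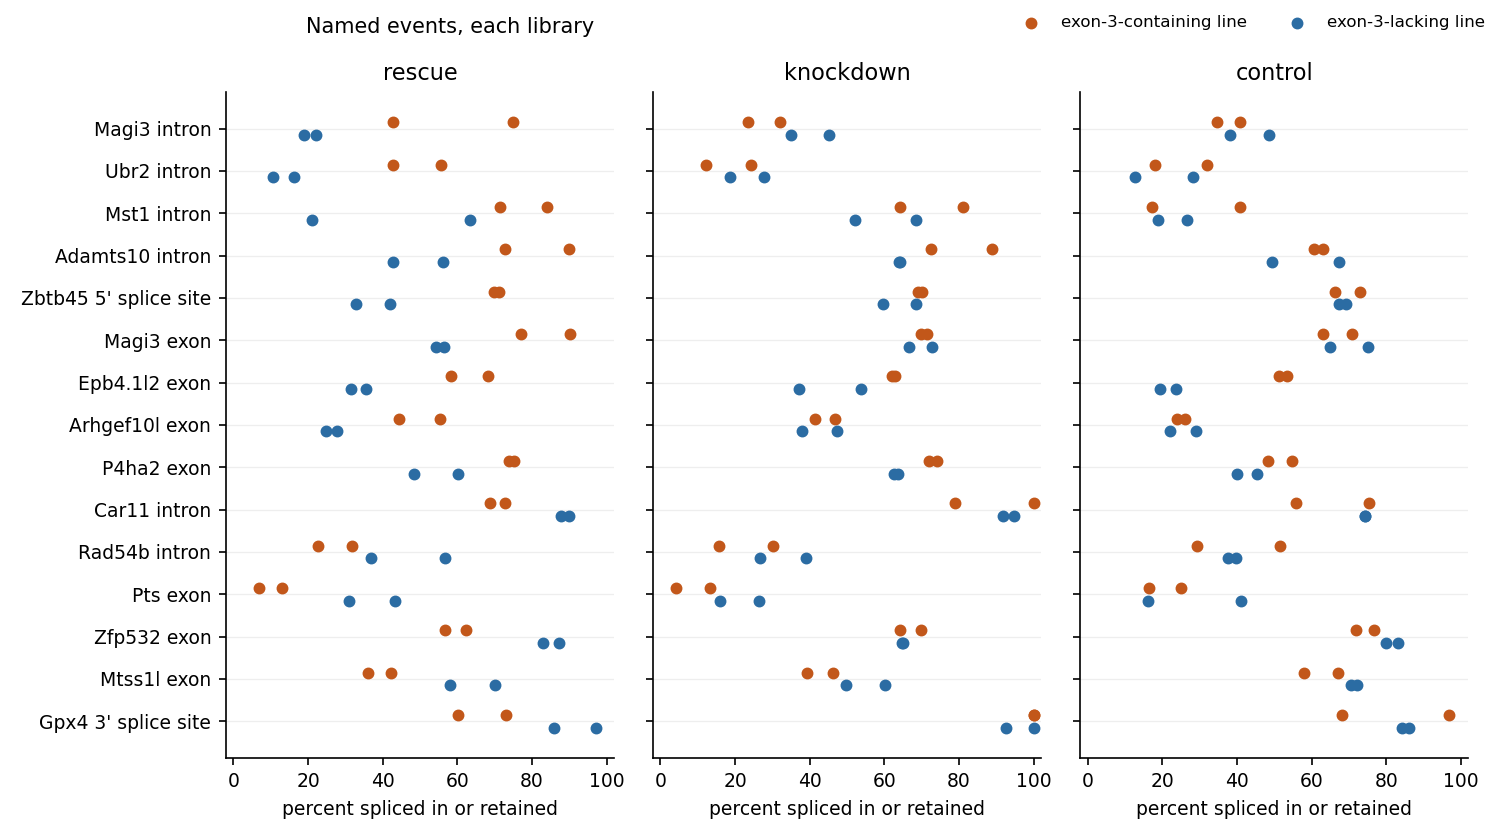
Percent spliced in, or percent retained for introns, of 15 named events in each library, at rescue (left), knockdown (middle) and control (right); each point is 1 library and colours mark the lines. The events were chosen for having no overlap between the lines at rescue. At control the Epb4.1l2 exon is also separated by at least 15 points.

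Some rescue differences were also present between the lines without rescue. Of the 294 separated events, 22 were separated at control with the same sign and 8 with the opposite sign, and 27 at knockdown with the same sign and 7 with the opposite. The 54-nt exon of Epb4.1l2, a membrane skeleton protein, was at 68.3% and 58.3% in the exon-3-containing rescue, against 31.6% and 35.6% in the exon-3-lacking rescue. It differed by 29.73 points at rescue, 17.07 at knockdown and 30.79 at control, and was separated in all 3. Of 195 microexons, 9 were separated at rescue (4.62%), 1 higher and 8 lower in the exon-3-containing rescue. At knockdown 8 were separated (4.1%), 2 higher and 6 lower in the exon-3-containing line, and at control 13 (6.67%), all 13 lower in it. The microexons of Picalm, Rapgef6, Trrap and Pacsin2 were separated at both rescue and control.

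The authors' deposited table of differential events called 246 of its 2175 listed events between the rescue groups (11.3%), against 202 at knockdown (9.29%) and 215 at control (9.89%). The rescue calls in the authors' deposited table held 119 introns with more and 8 with less retention in the exon-3-containing rescue (9.85% of listed introns). They held 24 exons with more and 64 with less inclusion (13.4%), and 9 microexons, a class of their own there, all with less (22%). At control the authors' deposited table called 29 introns higher and 54 lower in the exon-3-containing line. For exons the control counts were 16 and 84, and for microexons 1 and 10. At knockdown the counts were 64 and 25 for introns, 21 and 71 for exons, and 3 and 5 for microexons. Of the 246 rescue calls, 24 were also called at control, 9.76% of the rescue calls and 11.2% of the 215 control calls. A total of 208 were called neither at control nor at knockdown in the authors' deposited table. The rule behind the authors' calls was not stated.

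Gene expression differed between the rescue groups mostly in genes that also differed between the lines without rescue. By the authors' deposited table, 708 of 21541 tested genes had an FDR under 0.05 at rescue (3.29%), 334 higher (1.55%) and 374 lower (1.74%) in the exon-3-containing rescue, against 624 (2.9%) at knockdown and 803 (3.73%) at control. Of the 708, 412 were also called at control (58.2% of the rescue calls and 51.3% of the control calls), 410 of them with the same sign, and 684 had the same sign at control whether called or not. A total of 218 were called at rescue but not at control or knockdown in the authors' deposited table. To compare the lines, the authors' p-values for rescue against control in each line were turned into z and subtracted. The test compares z and not the fold changes themselves. With Benjamini-Hochberg adjustment the z difference passed in 4 of 21541 genes (0.0186%), and that for rescue against knockdown in 2 (0.00928%). For these z differences 413 and 295 genes had an unadjusted p under 0.05. A list of 521 of 13112 genes (3.97%) differed at least 2-fold in RPKM + 1, 277 higher (2.11%) and 244 lower (1.86%) in the exon-3-containing rescue.

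The widest RPKM ratios were mostly ribosomal pseudogenes, small RNAs and predicted genes listed at 0 in 1 rescue group, such as Rpl10a-ps1 (31.1 RPKM in the exon-3-containing rescue and 0 RPKM in the exon-3-lacking rescue in the authors' deposited table). Reads of such genes may be shared with near-identical copies, and of the 20 genes named by the ratio rule only Gm48275, Klhl4, Acta2 and Gm13736 had an FDR under 0.05 in the authors' deposited table. Among called genes of at least 1 RPKM, chosen after their values were seen, Klhl4, a Kelch-like gene, was at 13.3 RPKM in the exon-3-containing rescue and 0.18 RPKM in the exon-3-lacking rescue, and at 23.7 and 0.26 RPKM at control in the authors' deposited table. Arhgap6, a GTPase-activating protein, was at 0.24 RPKM in the exon-3-containing rescue and 6.92 RPKM in the exon-3-lacking rescue, and at 0.30 and 6.57 RPKM at control in the authors' deposited table. Both held their gap in every condition.

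Some adrenergic neuroblastoma genes were lower and some mesenchymal genes higher in the exon-3-containing line, at rescue and at control. By the authors' deposited table, 6 of 25 tested adrenergic genes were called lower in the exon-3-containing than in the exon-3-lacking rescue, and 0 higher. Among all tested genes 1.74% were called lower. The same numbers of adrenergic genes passed between the lines at knockdown and at control. The median log2 fold change of the list was -0.59 at rescue, -0.25 at knockdown and -0.70 at control in the authors' deposited table, and that of all tested genes 0.01 at rescue. Members that did not pass included Gata3, Isl1 and Phox2a, with log2 fold changes of 0.57, 0.39 and 0.11 at rescue in the authors' deposited table. Dbh, the enzyme that makes noradrenaline, was at 1.39 RPKM in the exon-3-containing rescue and 13.3 RPKM in the exon-3-lacking rescue in the authors' deposited table (log2 fold change -4.66, FDR 8.73e-47), with -5.35 at control. Mycn, Chga, Ret and Eno2 had log2 fold changes of -1.61, -1.43, -1.39 and -1.37 at rescue in the authors' deposited table. Of 34 tested mesenchymal genes, 7 were called higher and 2 lower in the exon-3-containing rescue, with a median of 0.39. Among all tested genes 1.55% were called higher at rescue. At knockdown 7 mesenchymal genes were called higher in the exon-3-containing line and 0 lower, with a median of 0.40. At control 8 were called higher (1.82% of all tested genes) and 0 lower, with a median of 0.30, in the authors' deposited table. Acta2, smooth muscle actin, was at 93.9 RPKM in the exon-3-containing rescue and 8.50 RPKM in the exon-3-lacking rescue, and at 40.9 and 1.07 RPKM at control in the authors' deposited table. Markers of fibroblasts moved with this group: their summed level was 7.8 RPKM in the exon-3-containing rescue and 2.0 RPKM in the exon-3-lacking rescue, and 23.5 and 3.4 RPKM at control, and 2 of 8 tested (Col6a1 and Col6a2) rose in the authors' deposited table. Col1a1 and Col1a2 were below 0.2 RPKM in both rescue groups of the authors' deposited table, and the part of such cells in the result was not tested.

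Hypoxia-response genes stood apart from the other lists at rescue. The list, known targets of hypoxia-inducible factors and glycolytic enzymes, was drawn up after Adm, Ankrd37 and Pdk1 had been seen among the genes lower in the exon-3-containing rescue, so its count is a description and not a test. Of its 30 rows for 29 genes, 18 (60%) were called lower in the exon-3-containing rescue in the authors' deposited table, and 0 higher. Among all tested genes 1.74% were called lower at rescue. At knockdown 4 rows of the list were called lower (1.32% of all tested genes) and at control 5 (1.91%). The median log2 fold change was -0.87 at rescue, -0.32 at knockdown and -0.39 at control in the authors' deposited table. Ankrd37 was at 14.7 RPKM in the exon-3-containing rescue and 52.3 RPKM in the exon-3-lacking rescue, at 24.7 and 34.8 RPKM at knockdown, and at 49.2 and 74.3 RPKM at control in the authors' deposited table. Bnip3, a mitophagy receptor, was at 60.4 RPKM in the exon-3-containing rescue and 159 RPKM in the exon-3-lacking rescue in the authors' deposited table (log2 fold change -1.44, FDR 1.05e-07), against -0.48 at control. Pdk1, the kinase that inhibits pyruvate dehydrogenase, was at 2.63 RPKM in the exon-3-containing rescue and 8.25 RPKM in the exon-3-lacking rescue in the authors' deposited table (log2 fold change -1.60, FDR 2.7e-06). Pgk1, Ldha and Eno1, which encode glycolytic enzymes, had log2 fold changes of -0.84, -0.77 and -1.15 at rescue in the authors' deposited table, against -0.06, -0.13 and -0.60 at control.

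The summed level of these genes lay below the knockdown group in the exon-3-containing rescue and above it in the exon-3-lacking rescue. It was 3541 RPKM in the exon-3-containing rescue and 6131.8 RPKM in the exon-3-lacking rescue, against 4134.3 and 4807.5 RPKM at knockdown and 5609.3 and 6681.7 RPKM at control, from the authors' deposited table. Rescue against knockdown had a median log2 fold change of -0.28 in the exon-3-containing line and 0.31 in the exon-3-lacking line, with 0 rows at an FDR under 0.05 in either in the authors' deposited table. The z difference of rescue against control between the lines passed in 0 of the 30 rows after adjustment over all genes. For it, 12 rows had an unadjusted p under 0.05, against 413 of all 21541 tested genes. A change specific to rescue was therefore not called for any single gene of the list. With 1 RPKM value per group, whether a single library carries these values could not be examined.

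**Figure D5:**
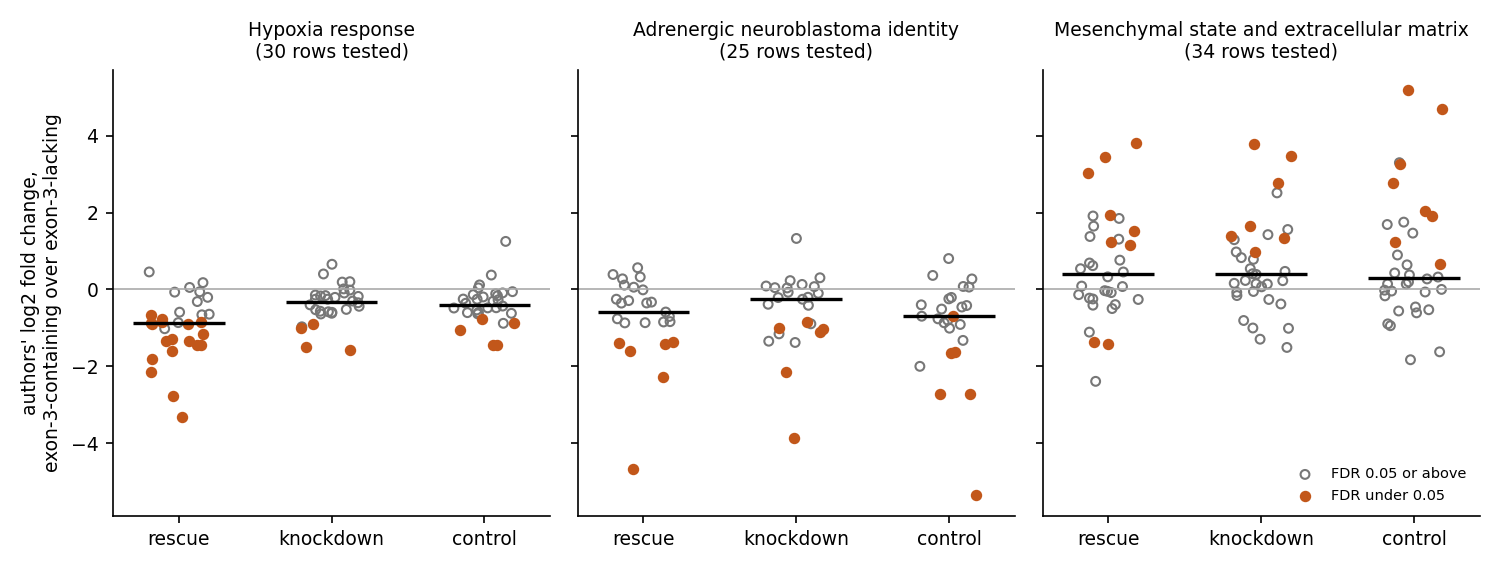
The authors' log2 fold change, exon-3-containing over exon-3-lacking, of each tested row of 3 gene lists at rescue, knockdown and control; filled points have an authors' FDR under 0.05, open points do not, and lines mark medians. In the hypoxia list 18 rows are called at rescue, against 4 at knockdown and 5 at control, while the adrenergic and mesenchymal lists show similar medians at rescue and control.

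Genes that responded to knockdown also lay mostly further toward the knockdown side in the exon-3-containing rescue. By the authors' deposited table, 339 genes (1.57% of 21541) passed for knockdown against control in both lines with the same sign. Of these, 244 (72.0%) lay further toward the knockdown side in the exon-3-containing rescue than in the exon-3-lacking rescue, with a median of 0.31 on the log2 scale, against 0.20 at knockdown and 0.00 at control. Between the rescue groups, 65 of the 339 were called in the authors' deposited table (3.29% of all tested genes were), 60 of them toward the knockdown side. The lines already differed in many of these genes without rescue, with 48 called at knockdown (40 toward that side) and 42 at control (27 toward it) in the authors' deposited table.

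No listed splicing factor passed the authors' FDR at rescue. By the authors' deposited table, 0 of 25 genes of 3′ splice site recognition and SAP30BP partners, 0 of 35 SR and hnRNP genes, 0 of 30 neuronal and tissue splicing regulators, 0 of 13 cyclin L, CDK11 and CLK genes and 0 of 19 SIN3 and HDAC genes were called at rescue, with medians from -0.07 to 0.10. A single splicing event was separated in each of 3 of these lists, near the 1.01% of all events: Sap30bp exon 3 among 100 events of the partners, the Mbnl1 exon among 65 of the neuronal and tissue regulators, and the Ccnl1 exon among 78 of the cyclin L, CDK11 and CLK genes. In the SR and hnRNP genes 0 of 69 events were separated, and in the SIN3 and HDAC genes 0 of 51. The lists of the integrated stress response, nuclear respiratory genes, the mitochondrial genome, S phase and mitosis also held 0 called genes at rescue in the authors' deposited table, as did glial and immune markers. In the remaining lists few genes passed, against 1.55% of all tested genes called higher and 1.74% called lower in the exon-3-containing rescue. Of 33 tested axon guidance genes, 1 was called higher (Nrp2) and 2 lower (Slit1 and Plxnd1) in the exon-3-containing rescue. The counts were 1 and 2 at knockdown and 1 and 4 at control in the authors' deposited table. Of 32 sterol and fatty acid genes, Nsdhl rose and Pmvk fell at rescue, against 1 that rose at knockdown and 2 that fell at control in the authors' deposited table. Of 34 immediate early and NF-kB genes, 2 were called higher (Klf6 and Phlda1) and 1 lower (Ier3) in the exon-3-containing rescue. The counts were 2 and 0 at knockdown and 4 and 1 at control in the authors' deposited table. Of 27 p53 pathway genes, 2 rose (Eda2r and Trp53inp1) at rescue, against 4 at knockdown and 1 at control in the authors' deposited table. Ier3 was at 10.3 RPKM in the exon-3-containing rescue and 23.1 RPKM in the exon-3-lacking rescue in the authors' deposited table, with a log2 fold change of -1.11 at rescue against -0.06 at knockdown.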

How the data were processed

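RNA of 12 libraries was analysed, 4 of them rescue libraries. The authors deposited percent values of inclusion from vast-tools on mm9, per the file headers, with no vast-tools version or coverage rule stated. The authors deposited RPKM values, 1 per group, and their own log2 fold changes and p-values with FDR. Salmon 0.14.1 and edgeR are named in the submitters' processing notes. Differences of percent inclusion in the authors' deposited event table are treated as a score. Libraries were made stranded from 1000 ng of RNA with inserts of 540 nt, per the labels' protocols.

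Of 401633 entries, 37194 first-site entries were left out. Percentages were fitted with limma 3.58.1 in R 4.3.3 over 6 group means of all 12 libraries, with trended robust variances. Calls needed a Benjamini-Hochberg adjusted p under 0.05 and 15 points. Depth is unknown, since the files used give no counts. The design had planned no test for the RPKM contrast; the authors' FDR for it was found in the files and used as deposited. For the difference of rescue between lines, each authors' p became a signed z and the z of both lines were subtracted.

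The naming rule took Sap30bp, then the widest separated events (up to 6 introns, 6 exons and 3 alternative sites per direction, 1 per gene), the 10 highest and 10 lowest RPKM ratios (RPKM + 1, at least 1 RPKM in a rescue group), the widest gaps to control and list members past 2-fold. Members and lists were chosen with earlier results of these data known, and the hypoxia list was added later. Scripts were tested on simulated data with Python 3.11.15. Other scales, filters, thresholds, a replicate term and leaving out each library were tried. Some items that these rules name are not reported here.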

Additional observations from a re-analysis of the deposited data

Results flagged for a closer look

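Each of the following was listed because rescue, set against control or knockdown, differed between the lines. For Sap30bp exon 3, the rescue difference exceeded the control difference by 85.76 points and the knockdown difference by 64.78 points (limma adjusted p = 1.29e-05 and 0.000261). That difference was set by the design of the cDNAs.

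Against control, the z difference of rescue passed for 4 genes of 21541, in values computed from the authors' deposited table. In all 4 the change from control was higher in the exon-3-containing line, which does not mean a higher level at rescue. The gaps given with it are in log2 fold change, which the z difference does not test. Ccn4, a secreted matrix protein, differed by 1.41 (adjusted p of the z difference 0.0298): it was at 13.6 RPKM in the exon-3-containing rescue and 5.88 RPKM in the exon-3-lacking rescue, and at 4.66 and 4.85 RPKM at control. The Ccn4 gap was already present at knockdown, with 16.1 RPKM in the exon-3-containing line and 6.42 RPKM in the exon-3-lacking line. Plcl1 differed by 5.03 (adjusted p of the z difference 0.00138), with 1.24 RPKM in the exon-3-containing rescue and 0.32 RPKM in the exon-3-lacking rescue, against 0.84 and 0.24 RPKM at knockdown and 0.01 and 0.08 RPKM at control. B230209E15Rik differed by 1.54 (adjusted p of the z difference 0.0464), with 35.7 RPKM in the exon-3-containing rescue and 32.9 RPKM in the exon-3-lacking rescue, against 32.6 and 34.5 RPKM at knockdown and 11.8 and 29.2 RPKM at control. For Ccn4, Plcl1 and B230209E15Rik the difference was already present in knockdown against control, and that of rescue against knockdown had an unadjusted p of 0.638, 0.64 and 0.352. Gm48275 differed by 11.32 (adjusted p of the z difference 1.06e-08) and was listed at 0 in the exon-3-lacking rescue.

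Against knockdown, Gm48275 differed by 9.04 (adjusted p of the z difference 0.0126) and Gm29609 by 2.86 (adjusted p of the z difference 0.0218). In both the change from knockdown was higher in the exon-3-containing line. Gm48275 and Gm29609 are predicted genes, and reads shared with similar sequences are uncertain. An alternative 5′ site of Fastkd3 was used at 50% and 41.5% in the exon-3-containing rescue, against 22.9% and 20% in the exon-3-lacking rescue, while at knockdown it was at 17.1% and 30.6%, against 54.0% and 34.3%. These differ by 44.56 points in opposite senses, and limma did not call that contrast.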

How the results depend on the processing

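The Sap30bp exon 3 difference stayed past the threshold under every alternative run, and ranged from 87.31 to 93.13 points when each library was left out. The count of events called for the rescue difference was 1 in every such fit, 2 on the logit scale (with Rpgr) and 2 with values in at least 10 of 12 libraries (with Zfp26). In that setting 2 events were also called beyond the control and beyond the knockdown difference. Without single libraries, calls beyond the knockdown difference were 1 to 2 (2, with Nbea, when exon-3-lacking knockdown replicate 1 is left out) and calls at control 0 to 1 (1, Gnb1l, without either exon-3-containing knockdown library), and 5 at control without trend and robustness. The median over knockdown-responsive events, 5.45 points, ranged from 3.41 (exon-3-lacking rescue replicate 1 left out) to 7.36. The median over introns retained more on knockdown ranged from 3.48 to 9.13 points and that over other introns from 0.45 to 2.03 (0.45 with exon-3-lacking rescue replicate 1 left out, 2.03 with replicate 2). Separated events numbered 920 at 10 points and 77 at 20 points, and 370 to 585 with a rescue library left out, of which 167 to 363 were introns. With replicate number as a block, limma called 1 event for the rescue difference and 0 at control, and the median over knockdown-responsive events was 5.44; deviations of same-numbered libraries correlated at 0.04 to 0.31 over 15 group pairs, 12 above 0.1, and replicate 1 had less retention than replicate 2 in each group over non-responsive introns. The labels do not say what a number shares. Genes past the fold numbered 873 with a pseudocount of 0.1, 163 with 5, and 1593 at 1.5-fold. The z difference passed in 13 genes against control and 6 against knockdown with a correlation of 0.3 between the lines. At an FDR under 0.01, 419 genes were called in the authors' deposited table. Of 540 values for 30 single events none changed direction or call, and of 194 for 68 single genes 112 moved and 0 reversed. The depth behind single events is unknown. The cause of these changes was not tested.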
